A study of Schizosaccharomyces pombe with 4 samples.

Results

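Fission yeast takes up phosphate and copper with small sets of genes that are kept low when the nutrient is plentiful. The RNA of 8 such genes was compared between wild-type Schizosaccharomyces pombe and cells without int6, which encodes eIF3e, a subunit of a translation initiation factor. They were chosen by gene identity, 4 for phosphate (pho1, pho84, tgp1, pho7) and 4 for copper (ctr4, ctr5, ctr6, cuf1), out of 6808 features in the authors' table. The wild-type strain was h- ura4-D18 leu1-32 and the deletion strain h- int6::kanMX6 ura4-D18 leu1-32, so both carried the uracil and leucine markers, and int6 was disrupted with the drug resistance cassette kanMX6. Both were grown in YES, a rich yeast extract medium with adenine and uracil, to an OD of 0.8 to 1.0. There were 2 rRNA-depleted total RNA libraries of each strain. No label says that replicates came from separate cultures, so p-values measure only the spread between these libraries, which may be technical.

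In phosphate-rich cells, transcription of long non-coding RNAs across the promoters of pho1, pho84 and tgp1 is known to hold these genes down, and the zinc-cluster factor Pho7 activates them when phosphate is scarce. Copper scarcity is read by Cuf1, a transcription factor that activates ctr4, ctr5 and ctr6. Ctr4 and Ctr5 form the copper transporter of the plasma membrane, and Ctr6 moves copper out of the vacuole. The same factor is known to repress iron uptake genes when copper is low.

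The promoters of the 3 phosphate-responsive genes are shown because each of them lies inside an upstream non-coding RNA and because Pho7 sites are known in the promoters of pho1 and tgp1. Each window holds the 250 bases before the RefSeq start of the gene, read 5′ to 3′ on the strand of the gene from RefSeq assembly ASM294v3. Capitals mark matches to TCGNNNNTTNAA, a pattern written after the published Pho7 sites, searched on both strands.
pho1, chr2:4447256-4447505, plus strand: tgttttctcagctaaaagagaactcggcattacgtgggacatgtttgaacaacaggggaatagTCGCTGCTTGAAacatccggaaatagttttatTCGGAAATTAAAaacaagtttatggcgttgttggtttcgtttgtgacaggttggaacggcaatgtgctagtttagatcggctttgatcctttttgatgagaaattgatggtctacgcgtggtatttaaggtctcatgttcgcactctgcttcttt
pho84, chr2:4443851-4444100, plus strand: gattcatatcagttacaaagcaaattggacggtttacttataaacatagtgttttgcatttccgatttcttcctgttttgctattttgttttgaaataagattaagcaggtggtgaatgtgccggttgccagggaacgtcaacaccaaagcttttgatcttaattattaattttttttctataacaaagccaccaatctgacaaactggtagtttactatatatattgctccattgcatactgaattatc
tgp1, chr2:352412-352661, minus strand: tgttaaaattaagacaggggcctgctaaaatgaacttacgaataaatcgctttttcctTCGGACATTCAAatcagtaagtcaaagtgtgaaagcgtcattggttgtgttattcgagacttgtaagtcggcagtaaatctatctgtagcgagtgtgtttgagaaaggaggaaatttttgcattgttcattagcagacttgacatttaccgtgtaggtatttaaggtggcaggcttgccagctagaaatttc
The pho1 window held 2 matches, TCGCTGCTTGAA from 187 to 176 bases and TCGGAAATTAAA from 155 to 144 bases before the gene start. The tgp1 window held 1, TCGGACATTCAA, from 192 to 181 bases before the start. The windows of pho84, pho7, ctr4, ctr5, ctr6 and cuf1 held 0. Of 5112 such windows in the genome, 297 (5.81%) held at least 1 match and 11 (0.2152%) held 2 or more. The pattern comes from sites that include those of pho1 and tgp1, so these matches are no independent evidence, and an absent match says only that these letters are not in the window.

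At pho1 and pho84, the deposited features overlap the non-coding RNAs over most of their length, and at tgp1 they hardly do. The table's pho1 feature spans 4446373 to 4449053 of chromosome 2, plus strand, and begins 1133 bases before RefSeq's pho1 at 4447506. RefSeq's nc-pho1, the non-coding RNA at 4446359 to 4448918, shares 2546 bases with it, which is 94.96% of the feature. RefSeq's prt2, the non-coding RNA over pho84, runs from 4442542 to 4445970 and shares 1846 bases, or 88.92%, with the table's pho84 feature at 4444125 to 4446200. The table lists prt2 as a feature of its own that overlaps pho84 by 67 bases on the same strand. At tgp1 (350692 to 352369, minus strand), nc-tgp1 shares only 35 bases, or 2.086% of the feature. RefSeq's tgp1, at 350310 to 352411, reaches past this feature at both ends. Neither nc-tgp1 nor nc-pho1 was found among the table's features, so neither has separate values here. Reads counted for pho1 and pho84 can therefore come from either kind of RNA, and the sources used here do not give the strand of counting. In bulk RNA, fewer cells that use a gene and less RNA per cell cannot be told apart.

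Wild-type libraries held 504 and 194 reads of int6, the disrupted gene, and deletion libraries 1 and 10. Library totals ran from 9926548 to 28254322 reads, and rRNA and tRNA took 56.08% and 66.41% of them in the wild type and 59.79% and 71.22% in the deletion. Both strains are labelled h-, the mating type that makes M factor. Of the M-factor genes, mfm2 had 165 and 103 reads in the wild type and 359 and 179 in the deletion. The other two were lower, with 0 to 1 reads of mfm1 and 0 to 20 of mfm3. Of the h+ markers, map2, the P-factor precursor gene, counted 8 and 12 reads in wild-type libraries and 5 and 2 in deletion libraries, while sxa1, a protease gene, had 27.3 and 36.8 CPM (normalised read counts scaled to library size) and then 36.7 and 39.2 CPM. The h+ marker map3 had 41 and 9 reads and then 25 and 30. In CPM the strains overlapped for mfm2, with 7.14 and 12.1 in the wild type against 10.2 and 15.1 in the deletion. They also overlapped for the M-cell markers mam1 and sxa2. For the M-cell marker mam2 both deletion libraries were below both wild-type libraries, at 3.94 and 3.42 CPM against 2.11 and 2.27 CPM. This held for 21.4% of all features, and mam2 was not called (log2 change −0.76, SE 0.44, edgeR adjusted p = 0.634). Summed over 6 M-cell markers the level was 16.3 to 21.6 CPM in the wild type and 22.2 to 23.3 CPM in the deletion. Over 3 P-cell markers it was 29.4 to 39.3 CPM and 37.5 to 41.9 CPM. The part of these differences in the results was not tested.

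By edgeR's quasi-likelihood test, none of the 8 genes reached the adjusted threshold of 0.05. The disrupted gene int6 was not called either, at a log2 change of −6.23 (SE 0.93, edgeR adjusted p = 0.111). Over all 5915 features tested, 1 was called higher in the deletion (0.0169%) and 0 lower (0%), and this background makes an empty count among 8 genes the usual outcome. All 8 genes passed the filter on low counts. At an unadjusted p under 0.05 the test gave 2 genes, pho1 and ctr4, both higher, where 4.8% of all features were higher and 5.31% lower at that level. The same 2 genes had both deletion libraries above both wild-type libraries in CPM, as did 20.1% of all features, and no gene had both below, as did 21.4%. The median log2 change of the 8 genes was 0.58, with 6 positive and 2 negative, against 0.0011 over all features. It was 0.31 for the 4 phosphate genes and 0.65 for the 4 copper genes.

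**Figure D1:**
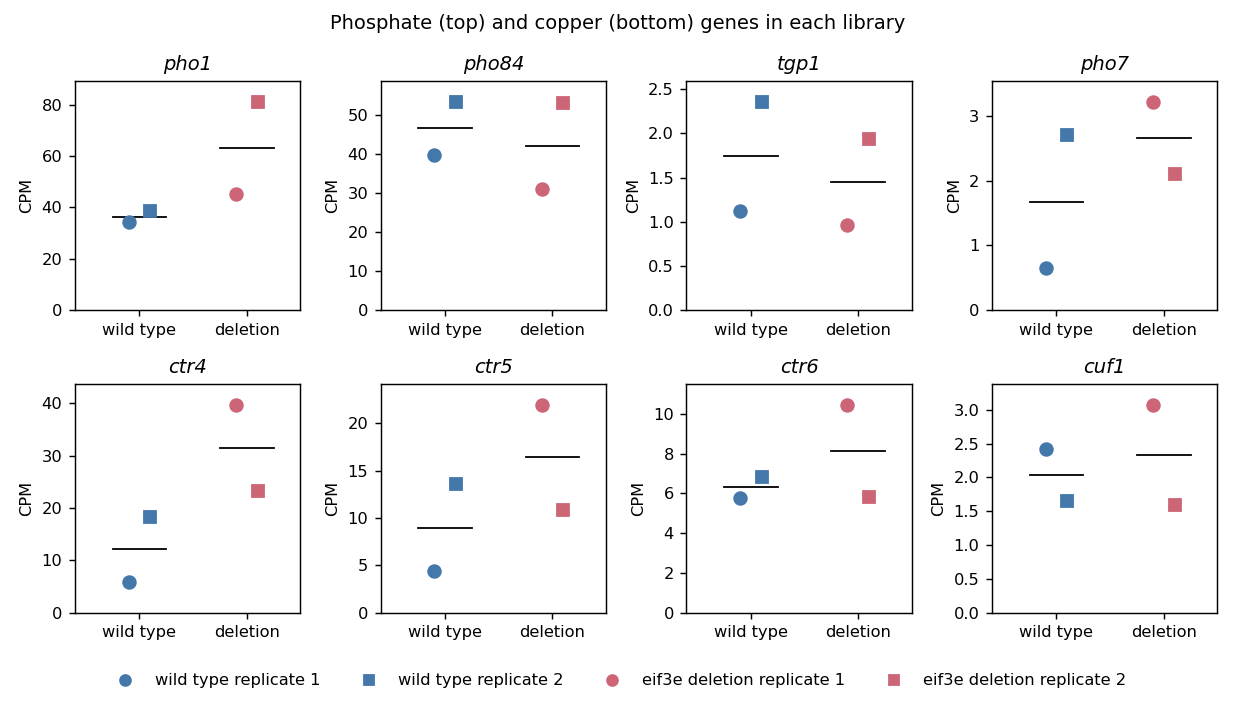
Normalised read counts (CPM, vertical axis from 0, its own scale in each panel) of the 8 genes in wild-type and deletion libraries, with circles for replicate 1, squares for replicate 2 and a line at the mean of each strain. Both deletion libraries stand above both wild-type libraries for pho1 and ctr4, and the strains overlap for the other 6 genes.

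pho1 encodes the acid phosphatase at the cell surface, which frees phosphate outside the cell. Its feature, SPBP4G3.02, held 794 and 326 reads in the wild type, replicate 1 first here and below, and 1580 and 963 in the deletion. These were 34.3 and 38.4 CPM (36.4 ± 2.89, SD, n = 2) against 45.0 and 81.1 CPM (63.0 ± 25.5, SD, n = 2). The wild-type libraries lay close together, both deletion libraries stood above them, and deletion replicate 2 stood far above replicate 1. The fitted log2 change was 0.79 (standard error, SE, 0.33), a 1.73-fold difference, with an edgeR unadjusted p of 0.0455 and an edgeR adjusted p of 0.482. Deletion replicate 1 was 1.31-fold above wild-type replicate 1, and deletion replicate 2 was 2.11-fold above wild-type replicate 2. Without deletion replicate 2, the log2 change of pho1 was 0.31.

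pho84 (SPBC8E4.01c), which encodes the plasma membrane phosphate transporter, lies 172 bases before the pho1 feature on the same strand. It had 39.7 and 53.3 CPM in the wild type against 30.9 and 53.0 CPM in the deletion. The strains overlapped, with replicate 1 the lower library in each. Its log2 change was −0.15 (SE 0.33, edgeR adjusted p = 0.918).

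In the authors' RPKM, which scales reads by feature length and by the whole library, pho84 had 23.2 and 20.5 in the wild type and 16.8 and 17.2 in the deletion. On that scale both deletion libraries were below both wild-type libraries, as for 19.9% of all features. The RPKM scale moved the median of all features by −0.12 (log2 of RPKM plus 1), and relative to that median pho84 differed by −0.22. pho1 had 15.5 and 11.4 RPKM in the wild type and 19.0 and 20.3 in the deletion, with both deletion libraries above both wild-type libraries, as for 6.32% of all features in RPKM. Its strains thus did not overlap on either scale. Relative to the median its RPKM difference was 0.65.

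tgp1 (SPBC1271.09) encodes a transporter of glycerophosphodiesters, another source of phosphate. It was covered by few reads, 26 and 20 in the wild type and 34 and 23 in the deletion. Its levels were 1.12 and 2.36 CPM in the wild type against 0.969 and 1.94 CPM in the deletion. The strains overlapped, and the exact 95% Poisson interval of wild-type replicate 1 alone, 0.735 to 1.65 CPM, was wide. Its log2 change was −0.26 (SE 0.76, edgeR adjusted p = 0.937). That SE is close to the log2 change of pho1, 0.79, so a difference of that size would not have stood out at tgp1. In RPKM, unlike in CPM, both deletion libraries of tgp1 (0.671 and 0.796) were below both of the wild type (0.835 and 1.15). The same held for 19.9% of all features. Relative to the median of all features, tgp1 differed by only −0.08 in RPKM (log2 of RPKM plus 1). It was also the gene with the highest p in the authors' deposited table, 0.317 with a chi-square of 3.53 over the 4 libraries, while the other 7 genes were at or below 3.55e-08. Those p-values were taken over libraries and not between strains.

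pho7 (SPBC27B12.11c), coding for the activator itself, was covered by 15 and 23 reads in the wild type and 113 and 25 in the deletion. This was 0.649 and 2.71 CPM in the wild type against 3.22 and 2.10 CPM in the deletion. Deletion replicate 1 was the highest library and wild-type replicate 1 the lowest, with replicate 2 of both strains between them. The wild-type libraries differed 4.18-fold. On the log2 scale with 0.5 CPM added, their distance of 1.48 was larger than that of 97.0% of the features tested. The log2 change was 0.77 (SE 0.77, edgeR adjusted p = 0.792), and leaving out wild-type replicate 1 gave −0.02.

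ctr4 had the largest fitted log2 change of the 8 genes. Its feature, SPCC1393.10, lies at 818302 to 819361 of chromosome 3, plus strand. It had 138 and 155 reads in the wild type and 1395 and 277 in the deletion, or 5.97 and 18.3 CPM (12.1 ± 8.70, SD, n = 2) and 39.8 and 23.3 CPM (31.5 ± 11.6, SD, n = 2). Both deletion libraries were above both wild-type libraries, though wild-type replicate 2 and deletion replicate 2 stood close together. The log2 change was 1.42 (SE 0.53), a 2.67-fold difference, with an unadjusted p of 0.0311 and an edgeR adjusted p of 0.438.

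The size of the ctr4 difference depended on which libraries were set against each other. Deletion replicate 1 was 6.66-fold above wild-type replicate 1, and deletion replicate 2 was 1.28-fold above wild-type replicate 2. The wild-type libraries themselves differed 3.06-fold. On the log2 scale with 0.5 CPM added, their distance of 1.54 was larger than that of 97.4% of features. Without deletion replicate 2, ctr4 was called, with a log2 change of 1.75 and an edgeR adjusted p of 0.0178, in a fit that called 1.13% of all features higher. It was not called when another library was left out, at a log2 change of 0.98 without deletion replicate 1, 0.79 without wild-type replicate 1 and 2.41 without wild-type replicate 2. In each such fit the strain with 1 library was assumed to vary like the other.

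ctr5 (SPAC1142.05), the partner subunit of ctr4, lies at 3635293 to 3636572 of chromosome 1, plus strand. It had 4.46 and 13.6 CPM in the wild type against 22.0 and 10.9 CPM in the deletion. As for ctr4, wild-type replicate 1 was the lowest library and deletion replicate 1 the highest, but here deletion replicate 2 fell between the wild-type libraries. Its wild-type libraries differed 3.04-fold, and its log2 change was 0.92 (SE 0.56, edgeR adjusted p = 0.649). Deletion replicate 1 was 4.94-fold above wild-type replicate 1, whereas deletion replicate 2 was 0.801 of wild-type replicate 2. A non-coding RNA on the opposite strand, SPNCRNA.923, overlaps ctr5 by 567 bases and had 0 to 4 reads per library.

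ctr6 (SPBC23G7.16), the vacuolar copper transporter gene, had 5.75 and 6.84 CPM in the wild type against 10.5 and 5.81 CPM in the deletion. Only deletion replicate 1 stood above the wild type. The log2 change was 0.39 (SE 0.38, edgeR adjusted p = 0.783). It is the only one of the 8 genes with introns in RefSeq, 4 of them with 342 bases in all, which is also the difference between the span of the table's feature and its transcript length. Its junction RPKM, from reads across splice sites, was 0.645 and 0.526 in the wild type and 0.901 and 0.506 in the deletion, which put the 4 libraries in the same order as total RPKM, with the strains overlapping. Incompatible RPKM, from reads that go against the transcript, was 0.117 in wild-type replicate 1 and 0 in the other 3 libraries.

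cuf1 (SPAC31A2.11c), coding for the copper-sensing activator, was covered by 56 and 14 reads in the wild type and 108 and 19 in the deletion. This was 2.42 and 1.65 CPM in the wild type against 3.08 and 1.60 CPM in the deletion. Replicate 1 was the higher library in each strain and the strains overlapped. Its log2 change was 0.20 (SE 0.58, edgeR adjusted p = 0.936).

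**Figure D2:**
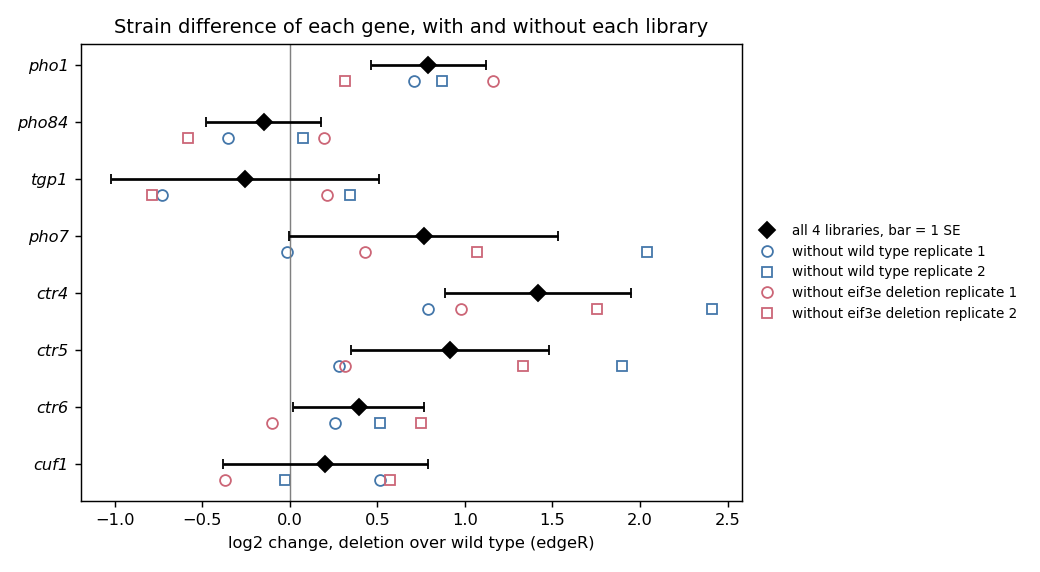
Log2 change of each gene, deletion over wild type, fitted by edgeR (horizontal axis), with all 4 libraries (black diamond, bar = 1 standard error) and without each library in turn (open symbols). For pho1, ctr4 and ctr5 every symbol lies above 0, while pho84, tgp1, pho7, ctr6 and cuf1 have symbols on both sides.

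Per length, the phosphate transporter and phosphatase features stood at the top in the wild type. Mean RPKM was 21.8 ± 1.89 for pho84, 13.5 ± 2.89 for pho1, 10.3 ± 4.90 for ctr4, 6.95 ± 1.20 for ctr6 and 6.33 ± 2.99 for ctr5 (SD, n = 2). The values of pho84 lay above those of the other 7 genes in both wild-type libraries. The ranges of pho1 and ctr4 overlapped, as did those of ctr4, ctr6 and ctr5. Below them came tgp1 at 0.994 ± 0.225, cuf1 at 0.985 ± 0.530 and pho7 at 0.516 ± 0.341 RPKM (SD, n = 2), which did not differ beyond their spread except that tgp1 lay above pho7 in both libraries. For comparison, the median of 5049 protein-coding features was 4.70 and 3.01 RPKM in the wild-type libraries.

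In the deletion the order of means was ctr4 at 28.6 ± 19.5, pho1 at 19.6 ± 0.929, pho84 at 17.0 ± 0.256, ctr5 at 12.6 ± 9.71 and ctr6 at 8.79 ± 6.27 RPKM (SD, n = 2). ctr4 overlapped both pho1 and pho84, since it was 42.4 RPKM in deletion replicate 1 and 14.8 in replicate 2. pho1 was above pho84 in both deletion libraries and below it in both wild-type libraries. The order of pho1 and pho84 in either strain rests on the deposited feature lengths. The pho1 feature begins 1133 bases before RefSeq's pho1. cuf1 at 1.05 ± 0.788, pho7 at 0.884 ± 0.551 and tgp1 at 0.734 ± 0.0886 RPKM (SD, n = 2) overlapped. The lowest genes were thus the same 3 in both strains.

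Ratios within a library do not depend on how libraries are scaled, so the neighbouring pho1 and pho84 features were also compared as shares of their joint reads. This comparison was chosen after the values were seen. pho1 took 46.4% (exact 95% Clopper-Pearson interval 44.0 to 48.8%) and 41.9% (38.4 to 45.5%) of the reads of the pair in wild-type replicates 1 and 2. It took 59.3% (57.4 to 61.2%) and 60.5% (58.0 to 62.9%) in deletion replicates 1 and 2. The mean share was 44.1 ± 3.17% in the wild type and 59.9 ± 0.792% in the deletion (SD, n = 2), 15.8 percentage points higher, and the intervals of the strains did not meet. The two-sided exact permutation p was 0.33, the smallest that 2 against 2 libraries can give. Among 5701 adjacent pairs of features on the same strand, rRNA and tRNA left aside, the ratio was above in both deletion libraries for 21% and below for 20.9%, so a pair that separates by strain is common in these data.

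The share of prt2 in the reads of prt2 and pho84 separated the strains in the same direction. It was 49.6% and 44.3% in the wild type (47.0 ± 3.73%, SD, n = 2) and 61.5% and 54.5% in the deletion (58.0 ± 4.92%, SD, n = 2), with the same exact permutation p of 0.33. Both shares have pho84 as their second gene, so they are not independent. By itself prt2 had 39.1 and 42.4 CPM in the wild type against 49.3 and 63.6 CPM in the deletion. Its deletion libraries were both above the wild type in CPM, as for 20.1% of all features, but the strains overlapped in RPKM. The log2 change of prt2 was 0.47 (SE 0.25, edgeR adjusted p = 0.585).

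**Figure D3:**
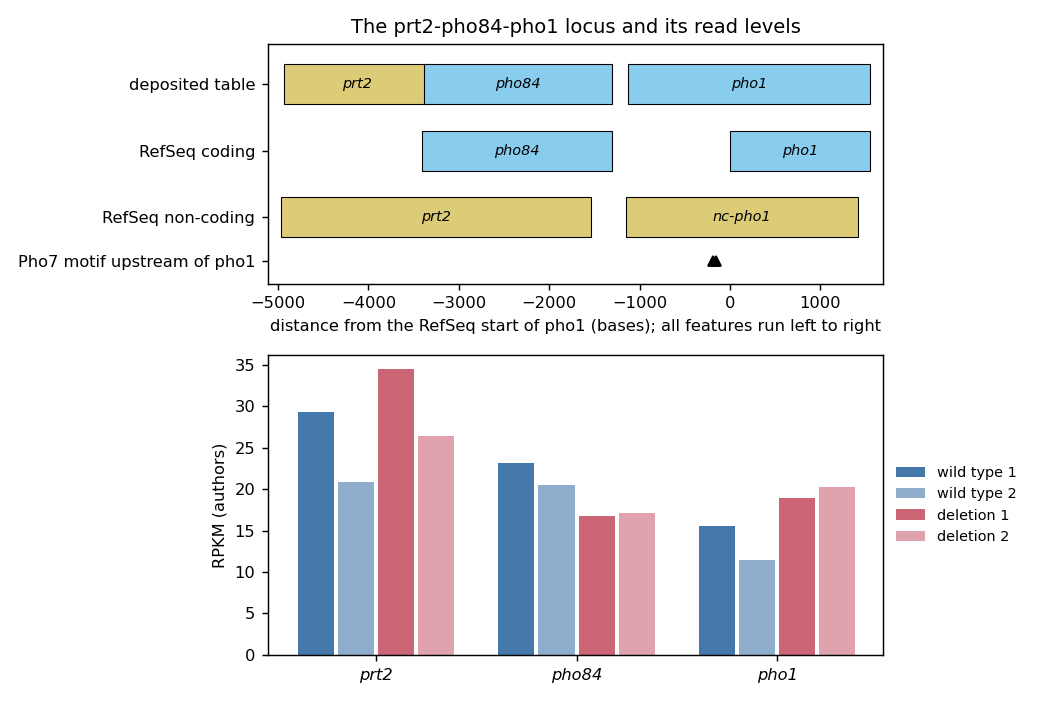
The upper panel maps prt2, pho84 and pho1 as the deposited table and RefSeq place them, by distance in bases from the RefSeq start of pho1, with triangles at the 2 Pho7 pattern matches upstream of pho1. The lower panel gives the authors' RPKM (bars from 0) in each library, scaled by the deposited feature lengths. On that scale pho84 is above pho1 in both wild-type libraries and below it in both deletion libraries.

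ctr4 and ctr5 lie on different chromosomes and encode subunits of one transporter. ctr4 took 57.3% (exact 95% Clopper-Pearson interval 50.8 to 63.6%) and 57.4% (51.3 to 63.4%) of their joint reads in the wild-type libraries, although the levels of ctr4 and ctr5 differed 3.06-fold and 3.04-fold between these libraries. It took 64.4% (62.3 to 66.4%) and 68.2% (63.5 to 72.7%) in the deletion. The mean was 57.3 ± 0.103% and 66.3 ± 2.72% (SD, n = 2), 8.97 points higher in the deletion, with an exact permutation p of 0.33. The intervals of both deletion libraries overlapped that of wild-type replicate 1. In RPKM the ratio of ctr4 to ctr5 was 1.62 and 1.63 in the wild type and 2.18 and 2.59 in the deletion. Of 5914 other features, 41 (0.693%) had a ratio to ctr5 that was above in both deletion libraries, and ctr4 was chosen after its values were seen. ctr5 itself differed 3.04-fold between the wild-type libraries and 2.03-fold between the deletion libraries. A feature without a like pattern can hardly separate in its ratio to ctr5, so this share is no chance rate. The exact intervals of the shares cover counting error only.

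**Figure D4:**
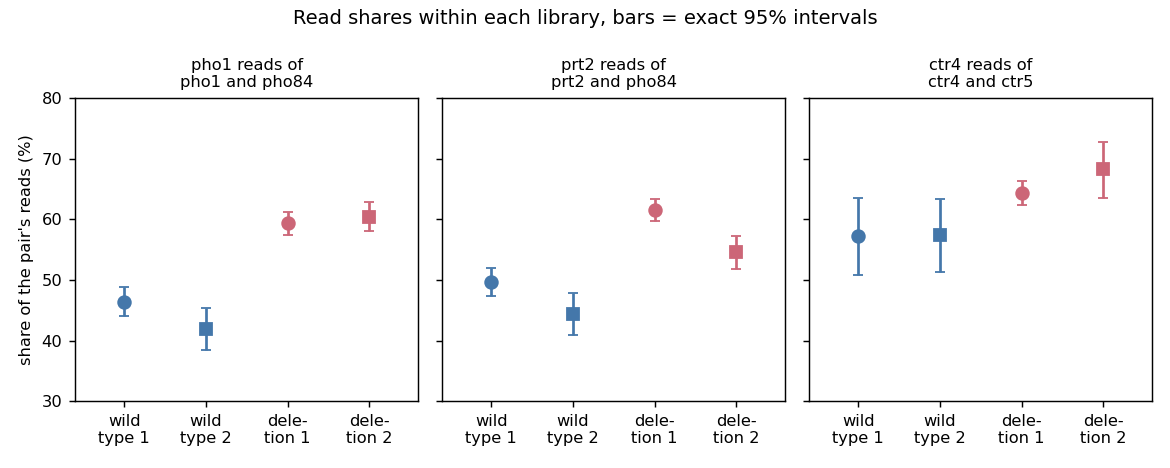
Share of reads in percent (vertical axis from 30 to 80) that the first gene takes of the 2 named above each panel, in each library, with exact 95% intervals. Both deletion libraries lie above both wild-type libraries in the 3 panels, from 59.3 to 60.5% for pho1, 54.5 to 61.5% for prt2 and 64.4 to 68.2% for ctr4.

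Neighbours were taken as the nearest feature on each side on the same strand and any feature that overlaps a gene. Of 16 such features that are not themselves among the 8, 13 passed the filter, 11 of them with a positive log2 change and a median of 0.35, and 0 were called. In CPM 5 of the 13 were above, 1 was below and 7 overlapped, where 20.1% of all features were above and 21.4% below. The feature with the smallest p was SPNCRNA.1344, a non-coding RNA 3627 bases upstream of tgp1, with 4.20 and 6.01 CPM in the wild type against 24.1 and 16.0 CPM in the deletion. Its strains lay far apart, with a log2 change of 2.00 (SE 0.35) and an edgeR adjusted p of 0.164. It was called once replicate numbers entered as a block (edgeR adjusted p = 0.0165), without deletion replicate 2 (edgeR adjusted p = 0.000976) and by DESeq2 (adjusted p = 0.00163). The only one of the 13 below was SPCTRNAchr1LE.09, a tRNA 803 bases upstream of ctr4, at 16.5 and 15.8 CPM and then 2.94 and 10.6 CPM (log2 change −1.30, edgeR adjusted p = 0.497).

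The other neighbours had smaller log2 changes or few reads. get3, which inserts tail-anchored proteins into membranes and lies 112 bases downstream of ctr5, had a log2 change of 0.63 (edgeR adjusted p = 0.56). mti3, a mitochondrial translation initiation factor gene 184 bases upstream of ctr6, had a log2 change of 0.43 (edgeR adjusted p = 0.602). pet802, downstream of tgp1, had 2 to 69 reads and a log2 change of 1.42 (SE 0.94). The neighbours of pho7 were at 0.00 for tom7, a mitochondrial import gene, and 0.15 for SPBC27B12.12c. For cuf1 the log2 change of apm4, an adaptor subunit gene, was 0.17 and that of sft1, a Golgi SNARE gene, 0.35. For ctr4 and ctr6 the downstream neighbours mrpl20, a mitochondrial ribosomal protein gene, and sui1, the gene of initiation factor eIF1, had log2 changes of 0.06 and −0.14. The rRNA feature SPRRNA.16 upstream of ctr5 was at 0.55 (SE 0.65). Few reads fell on fub2, downstream of pho1, with 16 and 4 in the wild type and 0 and 0 in the deletion, or on SPNCRNA.117, with 0 to 3.

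Among genes that act beside the phosphate genes, 7 of the 9 listed names were found and passed the filter, and 0 were called. Their log2 changes were positive for 5 and negative for 2, with a median of 0.09, and 3 had deletion libraries above the wild type in CPM, as did 20.1% of all features. The smallest p belonged to pho4, an acid phosphatase gene known for its control by thiamine, with 6.49 and 9.43 CPM in the wild type against 11.4 and 16.9 CPM in the deletion. Its strains did not overlap, and its log2 change was 0.84 (SE 0.34, edgeR adjusted p = 0.482). Of the next genes by p, pqr1, whose product limits phosphate uptake, had a log2 change of −0.43, csk1, a kinase gene, 0.73, and aps1, an inositol pyrophosphate hydrolase gene, 0.17.

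Factors that end transcription or remove RNA at the phosphate loci made up a list of 15, all tested, with 0 called. There were 8 positive and 7 negative log2 changes and a median of 0.07, with 5 above and 2 below in CPM, beside 20.1% and 21.4% of all features. dhp1, the nuclear 5′ to 3′ exonuclease gene, had 14.1 and 15.1 CPM in the wild type against 21.3 and 22.6 CPM in the deletion, a log2 change of 0.59 (SE 0.24, edgeR adjusted p = 0.482). seb1, the gene of an RNA-binding termination factor, had 24.1 and 23.5 CPM and then 17.0 and 15.2 CPM, a log2 change of −0.56 (SE 0.24, edgeR adjusted p = 0.497). Neither gene's strains overlapped, and they lay in opposite directions. dis2, a protein phosphatase gene, and ppn1, whose product belongs to the same 3′ end processing complex, had log2 changes of 0.60 (SE 0.29) and 0.73 (SE 0.46).

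Of 12 listed copper partners, cuf2 was not found. The list still gave 12 features, since cox11 is present as cox1101 and cox1102, near-identical copies whose reads are uncertain. Of these 11 were tested and 0 called, with 6 positive and 5 negative log2 changes, a median of 0.30, and 6 above in CPM, where 20.1% of all features were above. cao1, a copper amine oxidase gene, had 4.28 and 5.66 CPM in the wild type against 9.15 and 13.3 CPM in the deletion, which did not overlap. Its log2 change was 1.18 (SE 0.34, edgeR adjusted p = 0.337). cox1101 (0.60), cox17, a mitochondrial copper chaperone gene (0.47), and ccc2, a copper pump gene of the secretory pathway (0.42), had positive log2 changes as well. The superoxide dismutase gene sod1, with 281 and 211 CPM in the wild type against 177 and 284 CPM in the deletion, overlapped between strains.

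Of the iron uptake genes that Cuf1 is known to repress, 2 were tested and both had deletion libraries above the wild type in CPM, as did 20.1% of all features, without being called. Whether they differed more than the copper genes was not tested. frp1, a ferric reductase gene, had 2.47 and 3.18 CPM in the wild type against 14.9 and 7.83 CPM in the deletion, a log2 change of 2.04 (SE 0.42, edgeR adjusted p = 0.213). fio1, the gene of a copper-dependent ferroxidase, had 2.64 and 1.77 CPM and then 9.26 and 5.56 CPM, a log2 change of 1.72 (SE 0.43, edgeR adjusted p = 0.277). The strains did not overlap for either gene. fip1, the iron permease gene, was covered by 10 and 5 reads and then 23 and 8, and did not pass the filter.

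**Figure D5:**
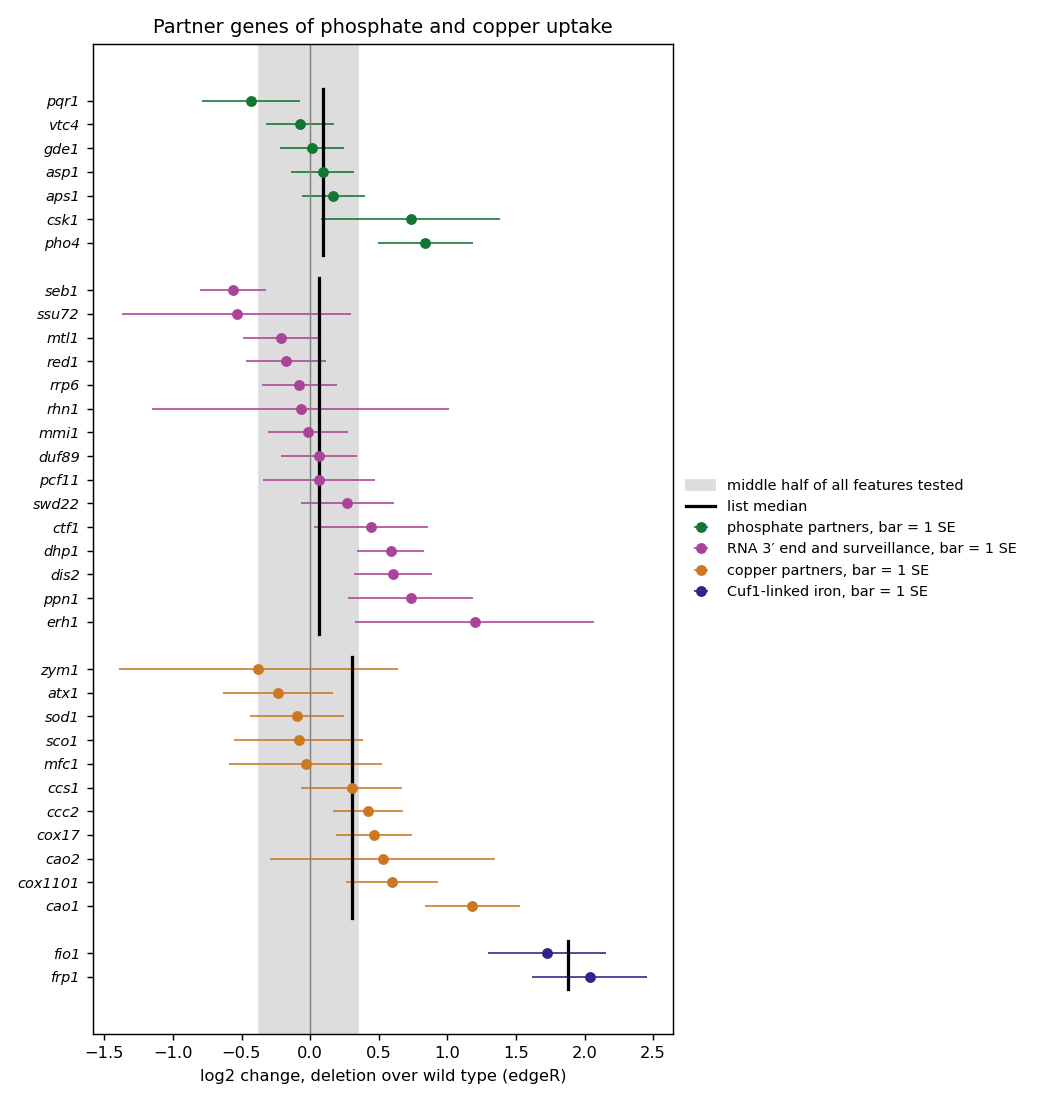
Log2 change, deletion over wild type, fitted by edgeR (horizontal axis), of each tested gene of 4 lists, with bars of 1 standard error, a black line at the median of each list and a grey band from the 25th to the 75th percentile of all features. The list medians are 0.09, 0.07, 0.30 and 1.88 from top to bottom.

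Genes whose levels followed pho1 and ctr4 over the 4 libraries were sought among 2150 protein-coding genes with a mean of at least 10 CPM, by the Euclidean distance of centred log2 CPM. Nearest to pho1 were lys9, of lysine synthesis, at a distance of 0.116, gnd1, of the pentose phosphate pathway, at 0.228, and adh4, an alcohol dehydrogenase gene, at 0.267. lys9 had 48.5 and 60.4 CPM in the wild type against 66.9 and 116 CPM in the deletion, with deletion replicate 2 the highest library, as for pho1. Nearest to ctr4 was ctr5, at 0.576, ahead of fyv4 at 0.749 and fau1 at 0.754. With 4 libraries of differing depth and rRNA content, likeness is a description only.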

How the data were processed

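RNA of 2 strains, with 2 libraries each, was sequenced on a SOLiD 4 instrument after rRNA depletion and RNase III fragmentation, per the labels' protocols. TopHat 1.4.1, Bowtie 1.1.0, Partek 6.0 and SAMtools appear in the submitters' processing notes, with no role stated. The genome build, annotation and counting strand were not given in the sources used here. The authors deposited estimated counts per feature, not normalized, of which 89.64% to 91.91% were whole within 1e-06. The deposited RPKM, junction RPKM and incompatible RPKM, per the file headers, are scaled by the authors by transcript length and library. The p-value and the chi-square score of each feature, deposited by the authors, cover the 4 libraries, and the deposited transcript length is in bases. There were 0 columns not tied to a library.

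RefSeq's ASM294v3 annotation named 6658 of 6808 features, and 6592 of them (99.01%) share a start or end with it. Feature coordinates are the table's and those of sequences and non-coding RNAs are RefSeq's.

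Counts were rounded and compared with edgeR 4.0.16 (R 4.3.3), with TMM, filterByExpr and the quasi-likelihood test, two-sided, adjusted by Benjamini-Hochberg over 5915 features with a threshold of 0.05. CPM are TMM-normalized. RPKM differences are of log2(RPKM + 1), which understates the change of low genes. Alternatives used DESeq2 1.42.0, limma 3.58.1 (voom), other scalings and filters, the replicate number as a block, and each library left out. Tables and figures were made in Python 3.11.15 (scipy 1.17.1, pandas 2.3.3, matplotlib 3.10.9).

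The edgeR step was also run on 5 simulations of this comparison, with 200 changed genes among 5915 features. It found 8.06% of the 2-fold, 60.6% of the 4-fold and 95.5% of the 8-fold changes, with 3.71% false calls. Every simulated feature had the same spread between libraries (a common dispersion of 0.111). These rates therefore need not hold for genes that spread more. In the real data int6 was not called at a log2 change of −6.23. Replicates differed by a chi-square of 122.6 per degree of freedom in the wild type and 273.5 in the deletion, so no pair looked like 1 library counted again.

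The 8 genes, the gene lists and the tests were chosen with earlier results of these data known. The text names the 8 genes, their neighbouring and overlapping features, from each list the genes called and then up to 4 with the smallest p, int6, and the 3 genes nearest to pho1 and to ctr4. Genes named otherwise, such as sod1, and the read shares were chosen after their values were seen.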

Additional observations from a re-analysis of the deposited data

How the results depend on the processing

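None of the 8 genes was called under any alternative with a test, except ctr4 without deletion replicate 2, which makes the count 1 there and 0 to 1 over the fits that leave out a library. Over all features 1 was called higher and 0 lower with the reported settings. The counts were 15 and 5 without the filter on low counts, 16 and 6 without rRNA and tRNA features, 49 and 41 by DESeq2, 0 to 70 and 0 to 172 when 1 library was left out, and 1 and 0 with DESeq2's size factors in edgeR and with limma-voom. The cause of these differences was not tested. With the replicate number as a block there were 88 higher and 105 lower, and the edgeR adjusted p was 0.141 for pho1 and 0.127 for ctr4. Same-numbered libraries of the strains also share a code in their titles, but the labels do not say what the number or the code marks. With only 2 pairs the correlation of deviations between same-numbered libraries, 0.238, does not settle whether they pair.

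The sign changed only when 1 library was left out. pho84 ranged from −0.58 to 0.19, tgp1 from −0.78 to 0.34, pho7 from −0.016 to 2.04, ctr6 from −0.10 to 0.75 and cuf1 from −0.37 to 0.57 (log2 change). pho1 ranged from 0.31 to 1.16, ctr4 from 0.79 to 2.41 and ctr5 from 0.28 to 1.90. On the log2 scale of RPKM plus 1 the differences were 0.53 for pho1, −0.34 for pho84, 0.30 for pho7 and 1.28 for ctr4. With 2 libraries a strain, changes near 2-fold were mostly missed in the simulations. In the real data larger differences went uncalled too, such as that of int6 at a log2 change of −6.23. The levels of tgp1, pho7 and cuf1 rest on 14 to 113 reads a library.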

Other observations

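Upstream of tgp1, beyond its own non-coding RNA, SPNCRNA.1344 overlaps the coding gene SPBC1271.08c on the opposite strand. SPBC1271.08c, chosen after its values were seen, stood at 3.42 and 4.60 CPM in wild-type libraries against 20.0 and 13.0 CPM in deletion libraries. It was above in both deletion libraries in CPM, as were 20.1% of all features, and in RPKM, as were 6.32%. Its log2 change was 2.07 (SE 0.36, edgeR adjusted p = 0.164). SPNCRNA.1344, whose edgeR adjusted p was also 0.164, reached 0.549 without wild-type replicate 1. Since the strand of counting is not known, the reads of this pair cannot be told apart. ncRNA.1343 lies between them and tgp1 on the strand opposite to tgp1, so it was not counted among the neighbours of tgp1. It stood at 4.71 and 2.95 CPM against 2.37 and 2.19 CPM, below in both deletion libraries, as were 21.4% of all features. In RPKM its strains overlapped. Its log2 change was −0.76 (edgeR adjusted p = 0.643). In RefSeq, ncRNA.1343 (354031 to 355573) overlaps nc-tgp1 (352335 to 354234) on the opposite strand, so its reads can include some of nc-tgp1.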
